A study of Mus musculus with 12 samples.

Results

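The genes of the NRF2 antioxidant pathway were followed in whole lungs of neonatal mice. The 10 members were taken by gene symbol from a count table of 55487 genes, and 10 of 10 were found, each in 1 row: Nfe2l2, Keap1, Gclc, Gclm, Gsr, Slc7a11, Txnrd1, Srxn1, Nqo1 and Hmox1. All 12 lungs came from miR-30a -/- mice on the C57BL/6J background, in which the miR-30a gene was deleted with CRISPR, so that the controls carry the deletion as well. Hyperoxia-exposed pups breathed 95% oxygen from postnatal day (PND) 1 to PND 5, their controls stayed in room air, and lungs were collected on PND 21, which is 16 days after the end of hyperoxia. There were 4 groups of 3 lungs: room air males, hyperoxia males, room air females and hyperoxia females. The pups of several litters had been pooled before they were divided between the exposures, and the labels do not tie a lung to a litter. Wild-type lungs were not analysed here.

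NRF2, encoded by Nfe2l2, is a transcription factor that responds to oxidants and electrophiles. In resting cells its inhibitor KEAP1 holds it in the cytoplasm and directs it to degradation. Oxidants modify KEAP1, and NRF2 then enters the nucleus, pairs with a small MAF protein and binds antioxidant response elements near genes for glutathione synthesis, thioredoxin recycling, quinone reduction and haem breakdown. Because NRF2 is controlled largely through protein stability, the Nfe2l2 transcript is not a readout of NRF2 activity, and the transcripts of its targets are used for that purpose. In the neonatal lung the pathway is known as part of the defence against high oxygen.

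Total counts ran from 8763033 to 16741694 per lung, and 3 counts amounted to 0.191 to 0.327 CPM, the unit of level used below (counts per normalized library size). Mir30a had 0 counts in all 12 lungs. This table counts long RNA, so that the value does not check the deletion. Xist had 8834 to 27296 counts in female and 148 to 210 in male lungs, as the labels have it. All 6 markers of alveolar type 2 cells fixed for this check had a mean of at least 5 CPM, as had all 5 of alveolar type 1 cells and all 6 of endothelial cells, so that the tissue had the markers of lung. The libraries differed in their reads on genes of olfactory and vomeronasal receptors, most of which are known from sensory neurons of the nose. The paper counts an olfactory receptor gene, Olfr78, among the neuroendocrine cell genes upregulated in hyperoxia-exposed miR-30a -/- females. Reads on the receptor genes took 0.410% to 0.947% of all counts, called the receptor share below. The source of these reads was not identified. The share was 0.517%, 0.410% and 0.740% in room air females 2, 5 and 6, and 0.670% to 0.849% in the hyperoxia females. It was 0.643% to 0.901% in the room air males and 0.516% to 0.947% in the hyperoxia males. Room air females 2 and 5 and hyperoxia male 1 therefore stood apart with the lowest shares, and the values of the members are also given without these females. Room air female 6 is then the only room air female left, so that such values rest on 1 control lung in females and take their spread from the other groups. Room air male 1 stood apart in another way, with skeletal muscle markers summing to 1647 CPM against 54.0 to 86.5 CPM in the other 11 lungs. Without this lung 0 members were called in males, with log2 fold changes from −0.20 (Gclm) to 0.085 (Nqo1). In both sexes together the values without it ran from −0.39 (Gclc) to 0.15 (Nqo1), also with 0 called.

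The start regions of the genes were searched for the core of the antioxidant response element, which NRF2 binds. The letters TGACNNNGC were looked for on both strands of the 250 bases before each RefSeq start (GRCm38.p6). A window was found for 7 of the 10 genes, with 9 windows in all, and Gclc, Gsr and Hmox1 are not analysed here in this respect. Of these 7 genes, 3 had a match, and of all 27018 genes with a window 11.52% had one. A match is a description of letters and not a measured site. The 3 matches are shown in capitals with up to 10 bases on either side, 5′ to 3′ on the strand of the gene:
Nfe2l2: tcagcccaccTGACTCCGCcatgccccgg
Gclm: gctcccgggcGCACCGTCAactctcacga
Txnrd1: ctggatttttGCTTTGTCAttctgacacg
The piece of Nfe2l2 lies at chr2:75704885-75704913 on the minus strand, and its match runs from 240 to 232 bases before the start on the strand of the gene. The piece of Gclm lies at chr3:122245413-122245441 on the plus strand, with the match on the other strand from 134 to 126 bases before the start. The piece of Txnrd1 lies at chr10:82859104-82859132 on the plus strand, before 1 of its 3 annotated starts, with the match on the other strand from 92 to 84 bases before it.

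All 10 genes were detected in every lung, with between 56 counts (Nqo1) and 2506 counts (Nfe2l2) per library, and 10 of 10 passed the filter on low counts. Levels can be compared between genes only per exon length. In CPM per kilobase of exon, averaged over the 12 lungs, Nfe2l2 was highest at 28.0 ± 7.01 (SD), followed by Gclc at 22.5 ± 7.41, Gsr at 16.2 ± 2.64 and Hmox1 at 13.2 ± 2.62. Txnrd1 at 6.97 ± 0.780, Keap1 at 6.19 ± 0.824, Gclm at 5.91 ± 1.15, Srxn1 at 4.41 ± 0.421 and Nqo1 at 4.12 ± 0.504 came next, and Slc7a11 was lowest at 1.72 ± 0.339. The ranges of 1 SD overlapped between all neighbours in this order except Hmox1 and Txnrd1 and except Nqo1 and Slc7a11. A background was estimated for each gene as the density of reads on receptor genes times the exon length of the gene. The estimate is not a true share of a gene's reads, since for Gsta1, a glutathione transferase gene of the wider list, it came to 111% of the counts. It amounted to 69.7% of the counts of Slc7a11, 28.7% of those of Nqo1 and 26.4% of those of Srxn1, and to 4.07% for Nfe2l2 and 5.02% for Gclc. The remaining genes had 7.11% (Gsr) to 19.4% (Gclm).

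None of the 10 genes was called between hyperoxia and room air, in both sexes together or in either sex, where a call needed more than a 1.5-fold difference and an adjusted p under 0.05 (edgeR's quasi-likelihood test with Benjamini-Hochberg adjustment over 45828 genes). Of all genes tested, 0.0415% were called in both sexes together, 0.00218% in females and 0.0% in males. At an unadjusted p under 0.05, 1 member was lower in both sexes together (2.52% of all genes) and 0 were higher (2.67%), 4 were lower in females (5.28% of all genes) and 0 differed in males (1.8% of all genes lower). The 4 were Gclc, Gclm, Gsr and Nfe2l2. DESeq2 also called 0 members, while some other settings, described below, called 1 in females, Gclc. Of the 10 genes, 8 had a log2 fold change under 0 in both sexes together, 8 in females and 7 in males, beside 44.0%, 39.0% and 52.0% of all genes tested. Of the 14605 genes with a mean of at least 10 CPM, 65.8%, 71.2% and 40.1% were under 0 in these comparisons. Over the 10 genes the median log2 fold change was −0.14 in both sexes, −0.28 in females and −0.03 in males, beside 0.03, 0.11 and −0.01 over all genes tested. Among the genes with a mean of at least 10 CPM, the median log2 fold change in females was −0.17. At an unadjusted p under 0.05, 14.4% of them were lower and 3.47% higher in females, and 1 was called.

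**Figure D1:**
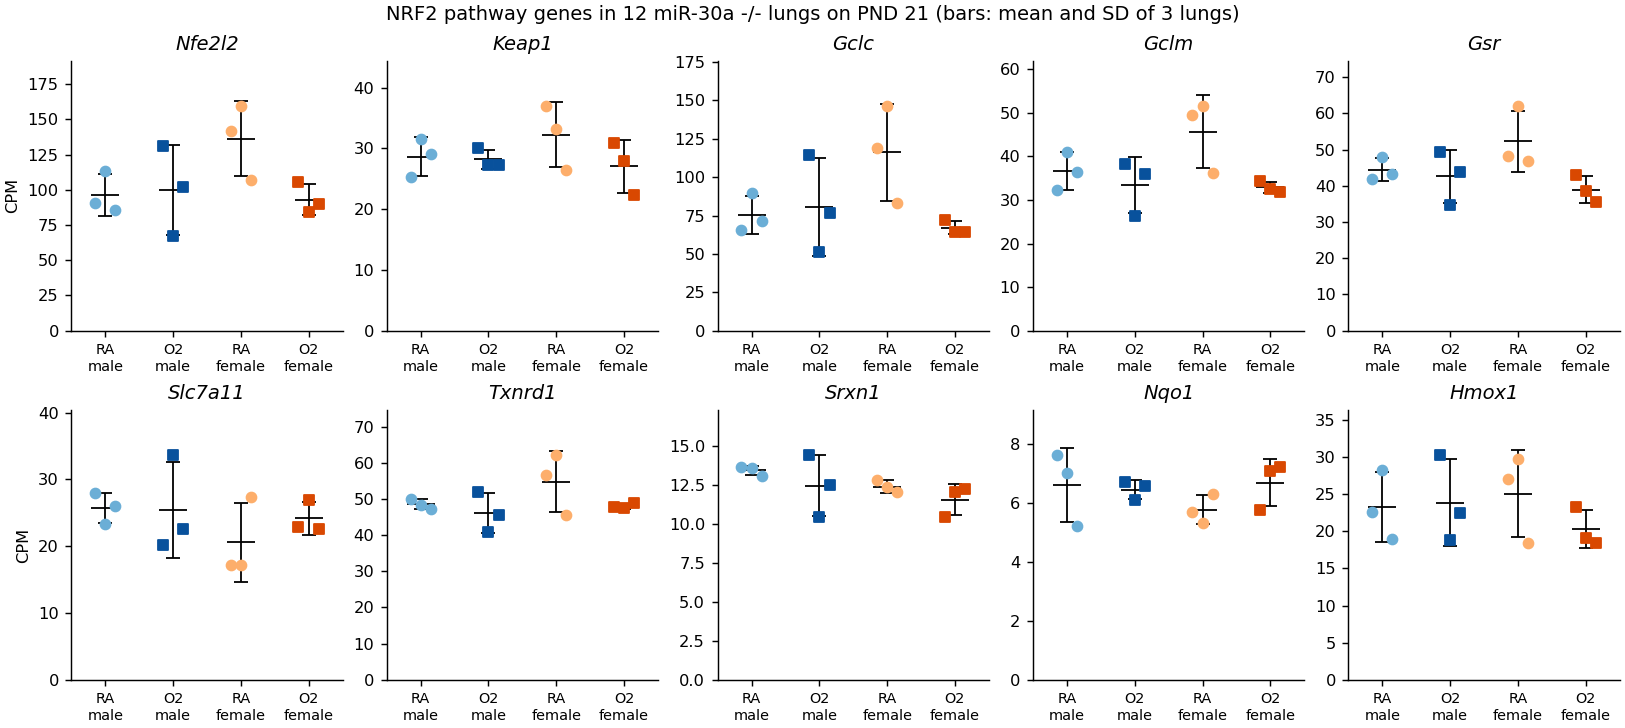
Level of each gene in CPM (vertical axes, from 0) in the 12 lungs, by group (RA, room air; O2, hyperoxia), with black bars for the mean and SD of 3 lungs. The hyperoxia females lay below all room air females for Nfe2l2, Gclc, Gclm and Gsr, while the male groups overlapped for all 10 genes.

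Nfe2l2 (ENSMUSG00000015839) lies on chromosome 2 of mm10 from 75675513 to 75704641. It stood at 142.0, 159.4 and 107.1 CPM in room air females 2, 5 and 6, and at 105.3, 84.1 and 89.5 CPM in hyperoxia females 2, 4 and 5. The female groups did not overlap, although the gap between the nearest lungs was small. In males the values were 90.3, 113.4 and 85.4 CPM in room air lungs 1, 4 and 5 and 130.8, 66.9 and 101.8 CPM in hyperoxia lungs 1, 2 and 3. The hyperoxia males held both the highest and the lowest of the 6 male values. The log2 fold change was −0.55 in females (95% confidence interval −1.03 to −0.08, adjusted p = 0.368, edgeR) and 0.05 in males (−0.42 to 0.53, adjusted p = 1.000). In females it was −0.11 when adjusted for the receptor share, −0.34 with background subtracted and −0.20 without room air females 2 and 5. With 1 RUVr factor, a factor of unwanted variation estimated from residuals, it was −0.53 (adjusted p = 3.81e-07, edgeR), under the 1.5-fold of a call. In both sexes together it was −0.25 (−0.58 to 0.09, adjusted p = 0.927, edgeR).

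Keap1 (ENSMUSG00000003308, chromosome 9 from 21229730 to 21239361) encodes the inhibitor that targets NRF2 for degradation. It ranged from 22.3 to 37.0 CPM over the 12 lungs, and the groups overlapped in both sexes. The log2 fold change was −0.14 in both sexes together (95% confidence interval −0.37 to 0.09, adjusted p = 0.927, edgeR). Of its exon bases 10.9% overlap Gm16754 on the other strand, and whether the counting used strand is not given in the sources used here, so reads of the pair cannot be told apart.

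Gclc and Gclm encode the catalytic and the modifier subunit of glutamate-cysteine ligase, the rate-limiting enzyme of glutathione synthesis. Gclc (ENSMUSG00000032350, chromosome 9 from 77754535 to 77794485) had 118.9, 146.3 and 83.0 CPM in room air females 2, 5 and 6. It had 72.1, 64.5 and 64.5 CPM in hyperoxia females 2, 4 and 5. All hyperoxia females were thus below all room air females, and the hyperoxia values lay close together while the room air values were spread. In males Gclc had 65.8, 89.4 and 71.3 CPM in room air and 114.1, 50.9 and 76.5 CPM after hyperoxia, with overlap. The log2 fold change in females was −0.79 (standard error 0.24, 95% confidence interval −1.29 to −0.30), a difference of −42.3% in the fitted level with an interval from −59.1% to −18.6%. Its adjusted p was 0.331 (edgeR), so it was not called, and its size differed between settings. It was −0.22 when the fit was adjusted for the receptor share, −0.60 with background subtracted and −0.30 without room air females 2 and 5. With 1 RUVr factor it was −0.75 and was called (adjusted p = 1.51e-10, edgeR), as were 1898 of all genes tested in females under that setting. In both sexes together that setting gave Gclc −0.36 (adjusted p = 5.87e-06, edgeR), short of 1.5-fold.

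Gclm (ENSMUSG00000028124, chromosome 3 from 122245557 to 122270732) had 49.5, 51.6 and 36.1 CPM in room air females and 34.4, 32.4 and 31.9 CPM in hyperoxia females. These groups did not overlap, but room air female 6 lay nearer to the hyperoxia lungs than to the other room air females. The room air males had 32.2, 41.0 and 36.5 CPM and the hyperoxia males 38.2, 26.2 and 36.0 CPM. Gclm was the member with an unadjusted p under 0.05 in both sexes together, where it had −0.30 on the log2 scale (standard error 0.12, adjusted p = 0.927, edgeR). This became −0.18 when adjusted for the receptor share and −0.12 without room air females 2 and 5. In females the log2 fold change was −0.48 (−0.82 to −0.13, adjusted p = 0.352, edgeR), with −0.16 after the adjustment, −0.13 without these lungs and −0.46 with 1 RUVr factor (adjusted p = 5.85e-05, edgeR), again short of 1.5-fold.

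Gsr encodes glutathione reductase, which restores reduced glutathione with NADPH. It lies on chromosome 8 from 33652523 to 33698163 (ENSMUSG00000031584). Room air females 2, 5 and 6 had 48.2, 62.0 and 46.8 CPM and hyperoxia females 2, 4 and 5 had 42.9, 38.6 and 35.5 CPM, without overlap. The log2 fold change in females was −0.43 (−0.78 to −0.08, adjusted p = 0.359, edgeR). It was −0.17 when adjusted for the receptor share, −0.25 with background subtracted, −0.26 without room air females 2 and 5 and −0.42 with 1 RUVr factor (adjusted p = 0.000142, edgeR, under 1.5-fold). In males it was −0.06 (−0.41 to 0.29, adjusted p = 1.000, edgeR).

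In females, 4 of the 10 genes had groups without overlap and with the lower values after hyperoxia, beside 6.42% of all genes tested. In males 0 of 10 did, beside 3.89%. Of the 13 lists of cell and tissue markers, several also had a median log2 fold change under 0 in females and others had one over 0. None of their markers was called in females. Of the markers of alveolar type 2, alveolar type 1 and endothelial cells, 0 of 6, 0 of 5 and 0 of 6 were higher, with median log2 fold changes of −0.54, −0.45 and −0.41. The summed alveolar type 2 markers ranged from 6081 to 11755 CPM in room air females and from 5725 to 7448 CPM in hyperoxia females, and 0 of the markers of these 3 lists were at 0 counts in all lungs. In bulk lung, fewer cells of a type and less RNA per cell cannot be told apart. Of the airway, the fibroblast and smooth muscle and the cardiac muscle markers, 0 of 6, 1 of 6 and 1 of 5 were higher, with medians of −0.53, −0.35 and −0.46. Of 7 alveolar macrophage markers 3 were higher in the hyperoxia females, with a median of −0.02 and summed levels of 191.5 to 390.0 CPM in room air and 215.3 to 346.0 CPM after hyperoxia, and of 5 neutrophil markers 2 were higher, with a median of −0.18. Red cell markers had the lowest median, −1.39, with 0 of 5 higher. Higher were 5 of 5 thymus markers (median 0.36), 3 of 3 of brown fat (0.43), 3 of 4 of liver (0.20) and 4 of 6 of skeletal muscle (0.19). The part of these markers in the values of the 4 genes was not tested.

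**Figure D2:**
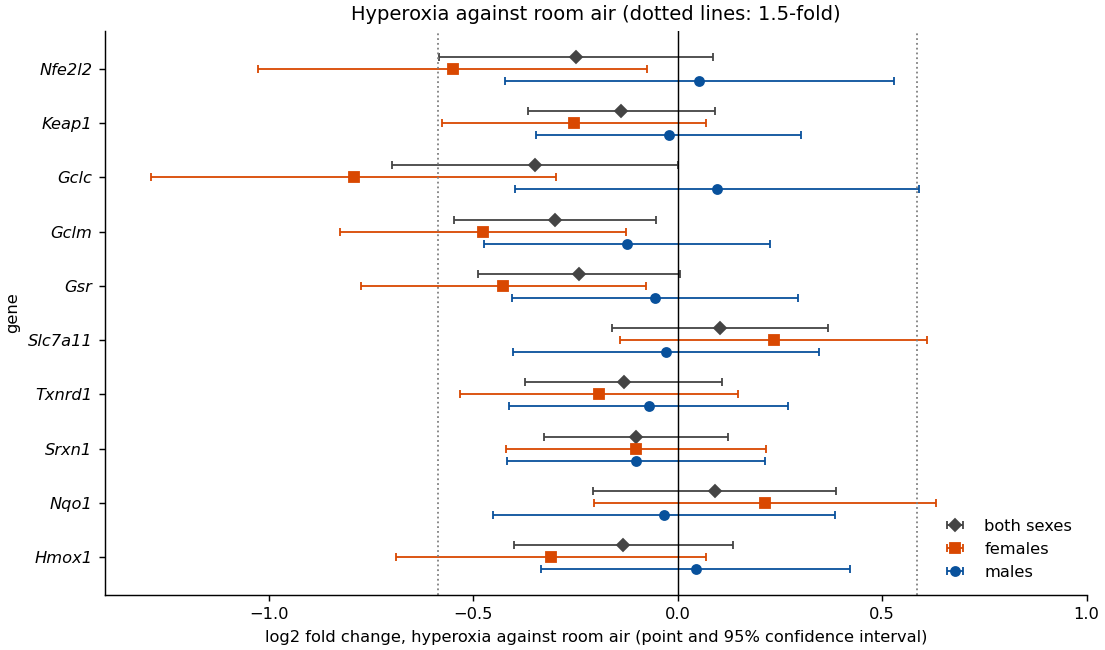
Log2 fold change of each gene, hyperoxia against room air (horizontal axis), with its 95% confidence interval, in both sexes together (diamonds), females (squares) and males (circles), and dotted lines at 1.5-fold. In females 4 intervals lie below 0, for Nfe2l2, Gclc, Gclm and Gsr, and in males all 10 intervals hold 0.

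Slc7a11 encodes the cystine/glutamate exchanger xCT, which brings in cystine for glutathione synthesis. It lies on chromosome 3 from 49892526 to 50443614 (ENSMUSG00000027737). Its extremes were in the same lungs as those of Gclc but the other way round: room air females 2 and 5, the highest for Gclc, had the lowest values of Slc7a11, at 17.1 and 17.2 CPM. Room air female 6 had 27.3 CPM and hyperoxia females 2, 4 and 5 had 22.9, 26.9 and 22.6 CPM. Hyperoxia male 2, the lowest for Gclc, was the highest for Slc7a11 at 33.6 CPM. The log2 fold change in females was 0.23 (−0.14 to 0.61, adjusted p = 0.535, edgeR), and it changed sign to −0.15 with background subtracted, to −0.11 when adjusted for the receptor share and to −0.18 without room air females 2 and 5. Its estimated background was the largest of the members, at 69.7% of its counts.

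Txnrd1 and Srxn1 belong to the thioredoxin and peroxiredoxin system. Txnrd1 (ENSMUSG00000020250, chromosome 10 from 82833951 to 82897712) encodes cytosolic thioredoxin reductase and had 56.7, 62.1 and 45.7 CPM in room air females and 47.8, 47.4 and 48.8 CPM in hyperoxia females. These groups overlapped, since room air female 6 was the lowest of the 6. Its log2 fold change in both sexes together was −0.13 (−0.37 to 0.11, adjusted p = 0.927, edgeR). Srxn1 (ENSMUSG00000032802, chromosome 2 from 152105516 to 152111376) encodes sulfiredoxin, which repairs over-oxidised peroxiredoxins. It varied least of the 10 genes, from 10.4 to 14.4 CPM with a coefficient of variation of 9.55% over the 12 lungs. Its log2 fold change was −0.10 in both sexes together (−0.33 to 0.12, adjusted p = 0.931, edgeR).

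Nqo1 and Hmox1, which are commonly measured as NRF2 targets, showed overlapping groups. Nqo1 (ENSMUSG00000003849, chromosome 8 from 107388225 to 107403206) encodes a quinone reductase. It was at 5.7, 5.3 and 6.3 CPM in room air females, 5.8, 7.1 and 7.2 CPM in hyperoxia females, 7.6, 7.0 and 5.2 CPM in room air males and 6.7, 6.1 and 6.6 CPM in hyperoxia males. Its log2 fold change in both sexes together was 0.09 (−0.21 to 0.39, adjusted p = 0.948, edgeR), an interval of −13.3% to 30.7% in the fitted level. Hmox1 (ENSMUSG00000005413, chromosome 8 from 75093621 to 75100589) encodes haem oxygenase 1. It was at 27.1, 29.7 and 18.5 CPM in room air females, 23.3, 19.1 and 18.5 CPM in hyperoxia females, 22.6, 28.3 and 18.95 CPM in room air males and 30.3, 18.8 and 22.4 CPM in hyperoxia males. Its log2 fold change was −0.13 in both sexes together (−0.40 to 0.14, adjusted p = 0.930, edgeR) and turned to 0.022 when adjusted for the receptor share.

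The values of the members in both sexes together lay nearer to 0 when adjusted for the receptor share and without room air females 2 and 5, but not for each member with background subtracted. Adjusted for the receptor share, the log2 fold changes were −0.095 for Nfe2l2, −0.060 for Keap1, −0.15 for Gclc, −0.14 for Gsr, −0.062 for Txnrd1, −0.066 for Srxn1 and 0.066 for Nqo1, and Slc7a11 turned to −0.039. Without room air females 2 and 5 they were −0.067 for Nfe2l2, −0.098 for Gclc, −0.15 for Gsr, −0.071 for Srxn1 and 0.033 for Nqo1, and the signs of Keap1 (0.013), Txnrd1 (0.0085), Hmox1 (0.097) and Slc7a11 (−0.098) changed. With background subtracted, Gclm (−0.32), Srxn1 (−0.13) and Nqo1 (0.14) lay farther from 0 and the other 7 members nearer to it. Leaving out single lungs also moved the values. Nqo1 in both sexes together ran from 0.018 (without room air male 5) to 0.15 (without room air male 1), Hmox1 from −0.24 (without hyperoxia male 1) to −0.047 (without room air male 4) and Srxn1 from −0.16 (without hyperoxia male 1) to −0.047 (without hyperoxia male 2). Keap1 ran from −0.20 (without room air female 6) to −0.075 (without hyperoxia female 5) and Txnrd1 from −0.19 (without room air female 6) to −0.080 (without room air female 5). Without hyperoxia male 1 and without hyperoxia male 2, Nfe2l2 was at −0.37 and −0.14 and Gclc at −0.52 and −0.23. In females, without room air female 6 and without room air female 5, Nfe2l2 was at −0.70 and −0.42, Gclc at −0.99 and −0.59, Gclm at −0.63 and −0.38 and Gsr at −0.51 and −0.29.

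The response to hyperoxia was compared between the sexes with the interaction term. Of the 10 genes 0 were called, beside 0.0% of all genes tested. Gclc had an unadjusted p under 0.05, beside 2.4% of all genes in the lower direction. Its log2 fold change was lower in females than in males by 0.89 (interaction −0.89, 95% confidence interval −1.59 to −0.19, adjusted p = 0.578, edgeR). Adjusted for the receptor share the interaction was −0.14, without room air females 2 and 5 it was −0.41, and with 1 RUVr factor it was −0.79 and was called (adjusted p = 2.66e-06, edgeR), as were 2102 of all genes. For Nfe2l2 the interaction was −0.60 (−1.27 to 0.07, adjusted p = 0.578, edgeR). It was −0.031 when adjusted for the receptor share, −0.31 with background subtracted and −0.27 without room air females 2 and 5. For Srxn1 the interaction was −0.00 (−0.42 to 0.42, adjusted p = 1.000, edgeR). Females were also compared with males over both exposures. Of the 10 genes 0 were called and 0 had an unadjusted p under 0.05, while 1.22% of all genes tested were called. The log2 fold changes of the members, females against males, lay between −0.20 (Slc7a11) and 0.20 (Nfe2l2). Adjusted for the receptor share, Slc7a11 was at −0.051 and Nfe2l2 at 0.046, and without room air females 2 and 5 at 0.0063 and 0.017.

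The levels of 8 of the 10 genes were correlated with the receptor share of the library at an adjusted p under 0.05, 7 of them negatively. Gclc had a Pearson r of −0.97 with it over 12 lungs (permutation test, two-sided, p = 1e-05, the smallest that 100000 permutations can give, adjusted p = 6.67e-05 over 10 relations) and a Spearman rho of −0.94 (permutation adjusted p = 0.000150). Without the 2 lungs farthest from the median share r was −0.93, and for deviations from the group means it was −0.97. Nfe2l2 had an r of −0.95 and a rho of −0.91 (permutation adjusted p = 6.67e-05 and 0.000375), with r at −0.92 without 2 lungs. Slc7a11 had an r of 0.89 and a rho of 0.81 (permutation adjusted p = 0.000220 and 0.00430), with r at 0.85 without 2 lungs. Gclm, Gsr, Txnrd1, Hmox1 and Keap1 had r values from −0.90 to −0.77, of which Txnrd1 had a Spearman rho of −0.58 that did not pass (permutation adjusted p = 0.0653). Srxn1 had an r of −0.31 and Nqo1 of 0.46, and neither passed (permutation adjusted p = 0.326 and 0.148). Of the 10 members 8 had a negative r, 6 an r under −0.8 and 1 an r over 0.8. Of the 14605 genes with a mean of at least 10 CPM, 72.2% had a negative r, 38.4% an r under −0.8 and 7.7% an r over 0.8, with a median of −0.67, so that the relation was shared with many other genes. Both measures come from the same libraries.

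**Figure D3:**
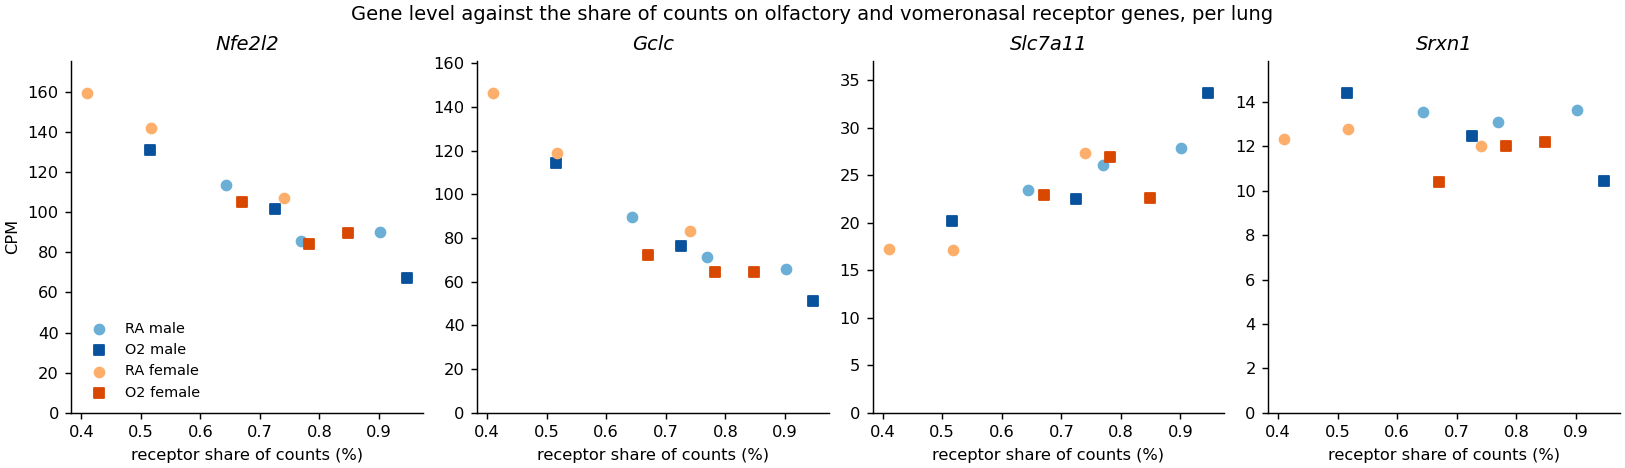
Level in CPM (vertical axes, from 0) against the receptor share of counts in percent (horizontal axes) for Nfe2l2, Gclc, Slc7a11 and Srxn1, with 1 point per lung, coloured by group (RA, room air; O2, hyperoxia). Nfe2l2 and Gclc fall and Slc7a11 rises along the axis in all groups together (r of −0.95, −0.97 and 0.89), and Srxn1 stays between 10.4 and 14.4 CPM.

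The levels were also compared between members across lungs. Of 45 pairs of genes, 26 had a permutation adjusted p under 0.05 for Pearson's r of log2 CPM, 20 of them positive and 6 negative. These pairs, 57.8% of the 45, had an absolute r of at least 0.67, as had 32.1% of all pairs among the 14605 genes, so that pairs of this strength were common outside the pathway. The positive pairs included all 15 among Nfe2l2, Gclc, Gclm, Gsr, Txnrd1 and Hmox1, with r from 0.72 to 0.98, and the 6 negative pairs were those of Slc7a11. The highest was Nfe2l2 with Gclc. By Spearman's rho 20 pairs passed. Srxn1 and Nqo1 had 0 such pairs each. With TMM normalization 34 pairs passed, among them 6 of Srxn1, with Nfe2l2, Gclc, Gclm, Gsr, Txnrd1 and Hmox1, and 0 of Nqo1. Taken as deviations from the group means, 24 pairs passed, 1 of them of Srxn1 with Gclc. Once the receptor share was regressed out, a step chosen after the values were seen, 0 of the 45 pairs passed, and the 15 pairs had r from −0.09 to 0.73, again highest for Nfe2l2 with Gclc. With background subtracted 3 pairs passed.

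**Figure D4:**
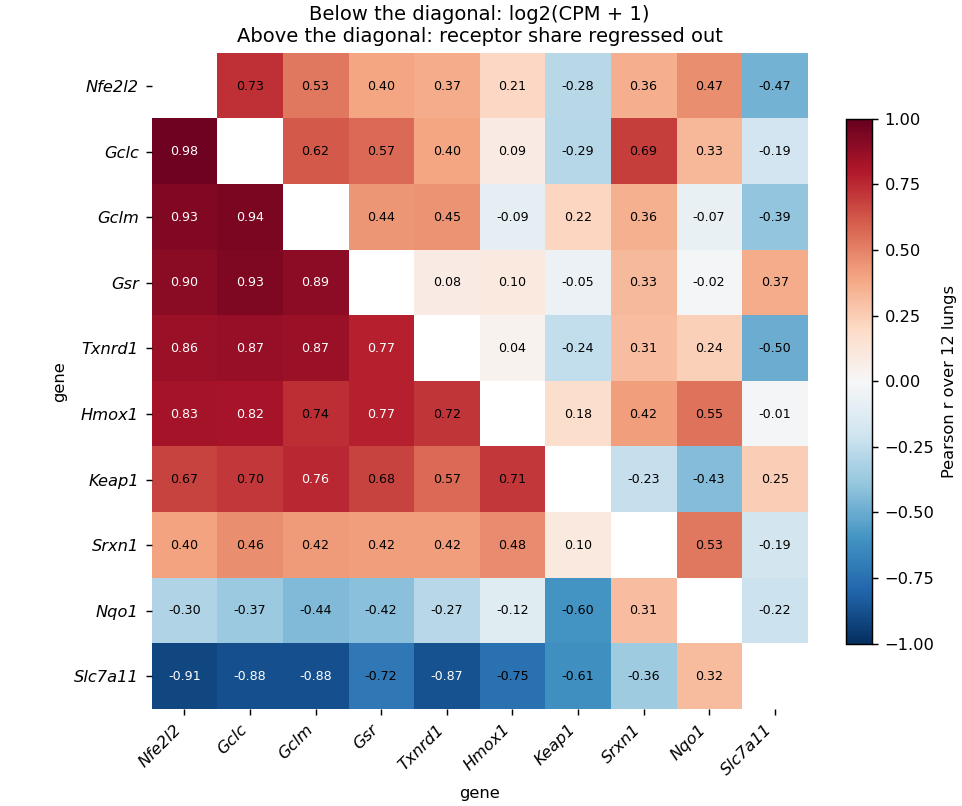
Pearson r over 12 lungs between the 10 genes (both axes), as colour and number, for log2(CPM + 1) below the diagonal and after the receptor share was regressed out above it. Below the diagonal the block from Nfe2l2 to Hmox1 runs from 0.72 to 0.98 and Slc7a11 is negative to it, and above the diagonal the same block runs from −0.09 to 0.73.

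The 2 genes most like each member over the 12 lungs were found among 14605 genes by Pearson r, as a description with no test. Sos1 and Fasn were closest to Gclc (r of 0.996 and 0.994), Nup153 and Kat6a to Nfe2l2 (0.99 and 0.99), and Nadk and Csk to Gclm (0.99 and 0.98). Txn1, which encodes thioredoxin, was closest to Gsr with an r of 0.98, followed by Usp42 with 0.97. Txnrd1 was most like Ostc and Snx5 (0.97 and 0.97), Hmox1 like Pex2 and Hspa14 (0.97 and 0.97) and Keap1 like Fzd5 and Tspo (0.93 and 0.93). For Slc7a11 the closest were 4930519G04Rik and Mug4-ps (0.96 and 0.96), the latter named as a pseudogene. Srxn1 reached 0.88 with 4930579G18Rik and 0.86 with Ift27, and Nqo1 only 0.82 with the vomeronasal receptor gene Vmn2r84 and 0.81 with Cenpl.

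A list of 58 other genes of the pathway was examined in 7 groups. In both sexes together 50 of 58 had a log2 fold change under 0, with a median of −0.13, beside 44.0% of all genes tested. None was called, beside 0.0415% of all genes. At an unadjusted p under 0.05, 9 were lower (2.52% of all genes) and 0 higher (2.67%). In females 50 of 58 were under 0 (39.0% of all genes), 17 of them at an unadjusted p under 0.05 (5.28%). In males 30 of 58 were under 0 (52.0% of all genes), 2 of them at that level (1.8%). Of the genes with a mean of at least 10 CPM, 65.8%, 71.2% and 40.1% were under 0 in both sexes, females and males. At that level 5.85%, 14.4% and 1.15% of them were lower.

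The partners and regulators of NRF2 were all under 0 in both sexes together (11 of 11, median −0.15). Of all genes tested 44.0% were under 0 there, and of those with a mean of at least 10 CPM 65.8%. None of the 11 had an unadjusted p under 0.05. Among them the small MAF genes Maff and Mafk, whose proteins pair with NRF2 on DNA, had log2 fold changes of −0.16 and −0.18. In females 4 of the 11 had an unadjusted p under 0.05, of which Mafk was at −0.62 (standard error 0.17, adjusted p = 0.290, edgeR). Of all genes 5.28% were lower at that level in females, and of those of at least 10 CPM 14.4%. In males 10 of the 11 were above 0, with 0 at that level. Of the NADPH-producing enzymes 6 of 6 were under 0 in both sexes together, with 3 at an unadjusted p under 0.05 (lower in 2.52% of all genes). These were Tkt at −0.34 (with 1 RUVr factor also −0.34, adjusted p = 3.04e-05, edgeR, under 1.5-fold) and Taldo1 at −0.32, both of the pentose phosphate pathway, and Me1, which encodes malic enzyme and was named after its value was seen. Of the glutathione enzymes and transferases 12 of 14 were under 0. Those with the smallest unadjusted p among genes of at least 5 CPM were Gstp1 at −0.35 and Gstm2 at −0.31, whose families have near-identical copies, so that their counts are uncertain. Thioredoxin (Txn1) was at −0.30 and peroxiredoxin 1 (Prdx1) at −0.28. All these values missed the adjusted threshold (adjusted p = 0.927 for each of these genes in both sexes together, edgeR). In both sexes together, adjusted for the receptor share, Mafk was at −0.083, Gstm2 at −0.20, Txn1 at −0.18 and Prdx1 at −0.10. In the same comparison without room air females 2 and 5, Maff was at −0.086, Mafk at −0.12, Taldo1 at −0.19, Gstm2 at −0.12, Txn1 at −0.19 and Prdx1 at 0.015.

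The genes of carbonyl, aldehyde and drug metabolism had a median of −0.07 in both sexes together, with 9 of 11 under 0 (44.0% of all genes). Aldh3a1, an aldehyde dehydrogenase, had the lowest value there, −0.58 (standard error 0.37, adjusted p = 0.927, edgeR), but this rested on 1 lung: room air male 1 had 51.9 CPM and the other 11 lungs 10.7 to 17.4 CPM. Left out in turn, the 12 lungs gave −0.75 to −0.06, the latter without room air male 1. Ephx1, which encodes microsomal epoxide hydrolase, stood at −0.16, and at 0.0041 when adjusted for the receptor share. Among efflux transporters and others, Trim16 was at −0.28 and Abcc4, an exporter of organic anions, at −0.14. Without room air females 2 and 5 they were at −0.14 and −0.25. With single lungs left out, Abcc4 ran from −0.17 to −0.076.

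Haem and iron handling held the largest difference of the list in both sexes together. Fech (ENSMUSG00000024588) encodes ferrochelatase, the last enzyme of haem synthesis. It was at 136.0, 154.5 and 171.8 CPM in room air males, 198.7, 146.2 and 150.4 CPM in room air females, 99.4, 80.9 and 128.6 CPM in hyperoxia males and 79.2, 95.1 and 89.7 CPM in hyperoxia females. All 6 hyperoxia lungs were below all 6 room air lungs, beside 0.12% of all genes tested. The log2 fold change in both sexes together was −0.74 (standard error 0.16, 95% confidence interval −1.07 to −0.42, adjusted p = 0.0782, edgeR), so it missed the threshold. It passed with DESeq2 at −0.78 (adjusted p = 5.18e-05 by DESeq2), and its adjusted p without 1 lung ranged from 0.0494 (without room air female 6) to 0.633. The markers of red cells moved with it. Of 5 red cell markers 5 were lower in both sexes together, 3 of them called, with a median log2 fold change of −1.24. Their summed level was 5118 to 7331 CPM in room air males, 2109 to 4650 CPM in hyperoxia males, 5452 to 7881 CPM in room air females and 1247 to 2927 CPM in hyperoxia females, and 0 of the 5 were at 0 counts. Their part in the value of Fech was not tested. Ftl1, which encodes ferritin light chain, was at −0.37 (adjusted p = 0.865, edgeR), and 26.5% of its exon bases overlap Gm10252 on the other strand.

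**Figure D5:**
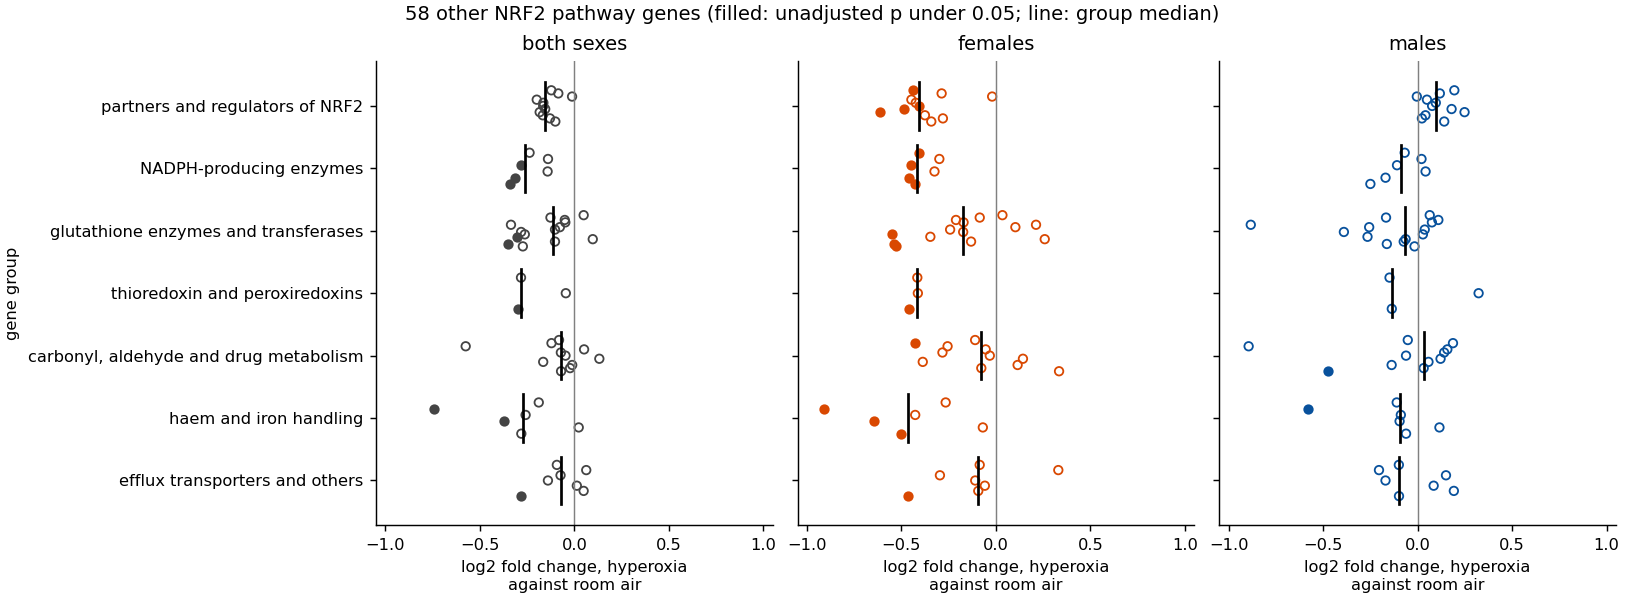
Log2 fold change, hyperoxia against room air (horizontal axes), of 58 other genes of the pathway in 7 groups (vertical axis), in both sexes together, females and males, with filled points for an unadjusted p under 0.05 and a black line for the group median. In both sexes together and in females 50 of 58 points lie below 0, and in males 30 of 58.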

How the data were processed

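RNA-Seq of 12 whole lungs (miR-30a -/-, PND 21, 3 per group) was used, with sex, exposure and animal number taken from the titles and characteristics. The authors used Trim Galore for trimming, STAR for mapping to mm10 (GRCm38) and featureCounts for counting, and deposited the raw counts of each gene, which are not normalized. The strand setting of the counting is not given in the sources used here, and the labels and the methods name different library kits. Replicates are separate mice. Every column of values was matched to a sample.

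The members and lists were chosen with earlier results of these data known. The members are described in full. Of the 58 other genes, those called in any of 5 contrasts were to be named, and from each group the 2 with the smallest unadjusted p in both sexes together and a mean of at least 5 CPM, which gave 14 genes. For each member the 2 most similar genes with a mean of at least 10 CPM were named.

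The 4 groups were fitted in R 4.3.3 with edgeR 4.0.16 (robust quasi-likelihood, upper-quartile normalization, filterByExpr, 45828 genes, no RUVr factor because its number is not given), and 95% confidence intervals are from this fit. The floor of 3 counts covers counting error only, since no molecular identifiers are described. Exon lengths and positions were those of GENCODE mouse release 21 (55227 of 55487 genes matched). Background was the reads per kilobase on 1492 receptor genes. Correlations used log2(CPM + 1) and permutation tests with 100000 resamples, with tables and figures made in Python 3.11.15. The receptor share entered correlations, regression and the adjusted fit as its log2. Alternatives were TMM, DESeq2 1.42.0, RUVr with 1 or 3 factors, no filter, 10 counts in every library, background subtracted, adjustment for receptor share, the adjusted p alone, each lung left out and a replicate block. Further choices, named in the closing section, were made after the values were seen.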

Additional observations from a re-analysis of the deposited data

Results flagged for a closer look

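The Gsr level of room air female 5, at 62.0 CPM, was the highest of the 6 room air lungs, and its gap to the next lung (48.2 CPM) was 0.687 of the range of the 6, above Dixon's 95% critical value of 0.625. This lung had the lowest receptor share, 0.410%. Chance alone marks about 1 in 20 groups drawn from 1 population, and since these 6 lungs were of both sexes, this rate is only approximate. Without room air female 5, the log2 fold change of Gsr in females was −0.29 (adjusted p = 0.914, edgeR). The cause was not tested.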

How the results depend on the processing

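Calls of members stayed at 0 in all 5 comparisons under TMM, DESeq2, both filters, background subtracted, adjustment for the receptor share, the adjusted p alone and each lung left out. In females 1 member, Gclc, was called with 1 or 3 RUVr factors and with the replicate block, and in the interaction 1, again Gclc, with 1 or 3 RUVr factors. Of the 58 other genes 1, Fech, was called in both sexes with DESeq2, with 1 or 3 RUVr factors, with background subtracted (log2 fold change −0.80) and without room air female 6, so that leaving out lungs gave 0 to 1 calls. Among the 45 pairs of members, 34 instead of 26 passed with TMM, 24 with deviations from the group means, 3 with background subtracted and 0 with the receptor share regressed out. The cause was not tested.

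Lungs that share an animal number had r of −0.49, 0.22 and −0.33 between their deviations from the group means. With 3 pairs these values cannot decide whether the numbers pair the samples. The replicate block left 2 pairs and 1 residual degree of freedom in females, where it gave Gclc −0.92 (adjusted p = 0.0341, edgeR) and called 451 genes instead of 1. In both sexes together, with 3 pairs and 2 residual degrees of freedom, it called 0 members and 0 of the other genes.

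Signs of values that were not called changed as follows, on the log2 scale. With background subtracted: in females Slc7a11 −0.15, in males Nfe2l2 −0.035, Slc7a11 0.20 and Hmox1 −0.031, in the interaction Slc7a11 −0.35, Txnrd1 0.080 and Srxn1 0.12, and females against males Gsr −0.0033. With adjustment for the receptor share: in both sexes Slc7a11 −0.039, Hmox1 0.022 and Ephx1 0.0041, in females Slc7a11 −0.11 and Hmox1 0.12, in males Nfe2l2 −0.080, Gclc −0.083, Slc7a11 0.035 and Hmox1 −0.074, in the interaction Keap1 0.019, Gclm 0.040, Slc7a11 −0.15, Txnrd1 0.12, Srxn1 0.12 and Hmox1 0.19, and females against males Keap1 −0.024, Gclc −0.010 and Gsr −0.045. Without room air females 2 and 5, chosen after the values were seen: in both sexes Keap1 0.013, Slc7a11 −0.098, Txnrd1 0.0085, Hmox1 0.097, Prdx1 0.015 and Ephx1 0.10, in females Keap1 0.037, Slc7a11 −0.18, Txnrd1 0.076 and Hmox1 0.14, in the interaction Keap1 0.048, Slc7a11 −0.16, Txnrd1 0.13, Srxn1 0.035 and Hmox1 0.084, and females against males Keap1 −0.092, Gclc −0.072, Gclm −0.029, Gsr −0.034, Slc7a11 0.0063 and Txnrd1 −0.020. The interaction of Srxn1 was 0.0074 and 0.011 with 1 and 3 RUVr factors and 0.080 with 10 counts in every library. With single lungs left out, Slc7a11 in both sexes ran from −0.014 to 0.23. In males Nfe2l2 ran from −0.18 to 0.28, Keap1 from −0.10 to 0.063, Gclc from −0.24 to 0.35, Gclm from −0.22 to 0.029, Gsr from −0.17 to 0.077, Slc7a11 from −0.26 to 0.12, Txnrd1 from −0.16 to 0.016, Srxn1 from −0.21 to 0.012, Nqo1 from −0.18 to 0.085 and Hmox1 from −0.16 to 0.22. The interaction of Srxn1 ran from −0.12 to 0.11, and females against males Gsr from −0.016 to 0.12 and Hmox1 from −0.13 to 0.048.

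With 3 lungs per group, the 95% intervals of the members in 1 sex were 0.63 to 0.99 wide on the log2 scale, and at 56 to 92 counts Nqo1 was the least deeply counted member.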
